A study of Mus musculus with 4 samples.

Results

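Siglecf+ neutrophil-like cells are cells that hold transcripts of *Siglecf*, a sialic acid-binding receptor best known on eosinophils and alveolar macrophages, together with *Csf3r*, the receptor for granulocyte colony-stimulating factor on neutrophils. A cell was selected when it had at least 1 unique molecular identifier (UMI, 1 counted transcript molecule) of *Siglecf*, of *Csf3r* and of at least 1 of *Cxcl3* (a chemokine that attracts neutrophils), *Igfbp6* (a secreted protein that binds insulin-like growth factor) and *Acod1* (the enzyme that makes itaconate). Cells with *C1qa* at 1.5 or more on the ln(1 + UMIs per 10000) scale, or with any UMI of *P2ry12*, *Tmem119*, *Cd3e*, *Cd79a* or *Cpa3*, were left out, which removes most macrophages, microglia, lymphocytes and mast cells. This rule kept 123 of the 14953 cells that passed the filters, out of 18969 barcodes in all, and 81 of the 123 came from the injured brain. Since the cells were chosen on measured values of these same libraries, every difference between them and other cells is given as a description, without a test.

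The study profiled single immune cells of the mouse brain and of the dura mater, the outer membrane that covers it, after a photothrombotic cortical injury, in which light-activated dye clots the vessels of a small area. All 4 libraries came from adult C57BL/6J mice at least 8 weeks old and from cells sorted for the leukocyte marker CD45, taken on day 3 after the operation. The groups were CT_brain and CT_dura, from control mice with a sham operation, and INJ_brain and INJ_dura, from mice with the injury. The labels write the brain sort as CD45-+ and the dura sort as CD45+, and the number of mice pooled into a library is not given in the sources used here. Each group was 1 library, so no difference between groups could be set against a spread between mice, and all intervals below are 95% intervals for counting error only. The labels name no genetic alteration, and surface proteins were not measured in these files.

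Neutrophils mature in the bone marrow, where they fill their granules in a set order, and then circulate as short-lived cells that are activated when they enter tissue. In tumours, infarcted heart and inflamed airways, neutrophils that carry Siglec-F have been described as long-lived cells with altered cytokine and survival programmes. Eosinophils also carry Siglec-F, so the granule proteins of eosinophils are the natural check on such cells.

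The libraries held between 49003977 and 115154317 UMIs, and the injured brain was the deepest. Between 3 and 11 barcodes were shared by any pair of libraries. In the injured brain the selected cells were shallow, with a median of 3556 UMIs per cell (range 1532 to 55085), against 10925 in neutrophils without a *Siglecf* UMI. These Siglecf-0 neutrophils were cells with *S100a8* and *S100a9* at 3 or more on the ln scale and a UMI of *Csf3r*, and the injured brain held 482 of them. A second set of 311 Siglecf-0 neutrophils also met the gates on *C1qa*, *P2ry12*, *Tmem119*, *Cd3e*, *Cd79a* and *Cpa3*, with a median of 7644 UMIs.

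The selected cells of the injured brain carried neutrophil transcripts. All 12 neutrophil markers were found in at least 10% of the 81 cells, against 6 of 12 in T cells and 5 of 12 in B cells. Among the 12, *Csf3r* was asked for by the rule and was thus in all 81 cells. Without the genes of the rule, the summed level of the markers was 10147 CPM (UMIs per 1000000 UMIs) in the 81 cells. It was 461 CPM in T cells, 1557 CPM in B cells and 15611 CPM in the 482 Siglecf-0 neutrophils. The sum over the 81 cells mostly describes 27 cells above 6000 UMIs, which held 75% of the UMIs. In the 53 cells of 2000 to 6000 UMIs, 4 of the 12 markers were at least 2-fold lower and 0 higher. That comparison was with 122 Siglecf-0 neutrophils of the same depth range and gates (median log2 ratio -0.72). *S100a8* and *S100a9*, on which those neutrophils were chosen, were among the 4 lower markers, so that part of the count follows from the choice. *Mmp9*, a granule gelatinase, was found in 95.1% of the 81 cells. Of 10 eosinophil markers, *Ccr3*, *Il5ra*, *Prg2* and *Alox15* were at 0 in every one of these cells, and *Epx*, *Prg3*, *Ear1* and *Ear6* are not among the genes listed for the library. *Ear2* was at 30.98 CPM, in 7 of the 81 cells, against 61.99 CPM in the 482 neutrophils. *Cd3d*, *Trbc2*, *Ncr1* and *Gata3* of lymphoid cells and *Cd79b* and *Ms4a1* of B cells were also at 0, as were 7 of 8 mast cell and basophil markers, although *Cpa3* and the lymphocyte gates are part of the rule. The markers thus bear the label neutrophil-like, although 27 of the 81 cells fell below the level of *S100a8* and *S100a9* asked of the comparison neutrophils.

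The steps of the rule in the injured brain show where cells were kept and lost. Among its 4684 passing cells, 327 had a *Siglecf* UMI, 277 of these also had *Csf3r*, and 172 had at least 1 of the 3 further genes. The gate on *C1qa* was failed by 75 of the 172, *P2ry12* by 70 and *Tmem119* by 50, with overlap. The highest *C1qa* value inside the gate was 1.43 and the lowest outside it was 1.53 on the ln scale. A single *Siglecf* UMI carried 42 of the 81 cells and 39 had at least 2, up to 8, so for 42 cells the choice rests on 1 molecule.

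*Siglecf* (chr7:43351341-43359531, plus strand, GRCm38) was the gene that defined the choice, and its level was 231 CPM (197 to 269) over the summed UMIs of the 81 cells. It was 103 CPM (61.0 to 163) in the 13 selected cells of the CT_brain library, 163 (74.5 to 309) in the 8 of CT_dura and 211 (151 to 287) in the 21 of INJ_dura. These levels follow from a rule that asks for at least 1 UMI, and are not a comparison between libraries.

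The selected cells made up the largest share of passing cells in the injured brain. There they were 81 of 4684, or 1.73% (exact Clopper-Pearson interval 1.38 to 2.14). The share was 0.771% (0.478 to 1.18) in INJ_dura, 0.340% (0.181 to 0.581) in CT_brain and 0.215% (0.0928 to 0.423) in CT_dura. The interval of the injured brain lay above those of the other libraries. Since deeper cells more easily show a UMI of any gene, each cell was also thinned at random to 2000 UMIs, leaving out shallower cells. The shares were then 0.865% (40 of 4622) in INJ_brain, 0.262% (7 of 2674) in INJ_dura, 0.0279% (1 of 3587) in CT_dura and 0 of 3765 (0 to 0.0979%) in CT_brain. The order with the injured brain first held at equal depth, and the injured dura came next, with intervals that did not overlap that of the injured brain.

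Set against neutrophils of the same library, the selected cells were 14.4% of the selected cells plus Siglecf-0 neutrophils in INJ_brain, 3.92% in INJ_dura, 2.12% in CT_brain and 0.914% in CT_dura. The same pattern held for *Siglecf* alone, without the 3 further genes. Among neutrophils that passed the *S100a8*, *S100a9* and *Csf3r* levels and the gates, a *Siglecf* UMI was found in 17.3% in INJ_brain, 7.54% in INJ_dura, 4.84% in CT_brain and 3.46% in CT_dura, and at 2000 UMIs in 8.89%, 3.099%, 2.58% and 0.963%. T cells, which should lack the gene, carried a *Siglecf* UMI in 3.26%, 1.37%, 0.510% and 0.400% of cells in the same order, and at 2000 UMIs in 0.727%, 0.457%, 0.256% and 0. The share in neutrophils was above that in T cells in each library, although T cells of the injured brain (median 8395 UMIs) were deeper than its gated Siglecf-0 neutrophils (7644). B cells of the injured brain had a *Siglecf* UMI in 1 of 80 (1.25%, median 3746 UMIs) and macrophages in 2.97% (median 13071). Macrophages of CT_brain had one in 4.28% (2.36 to 7.08), near the 4.84% of its gated neutrophils, and at 2000 UMIs in 0.955%.

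**Figure D1:**
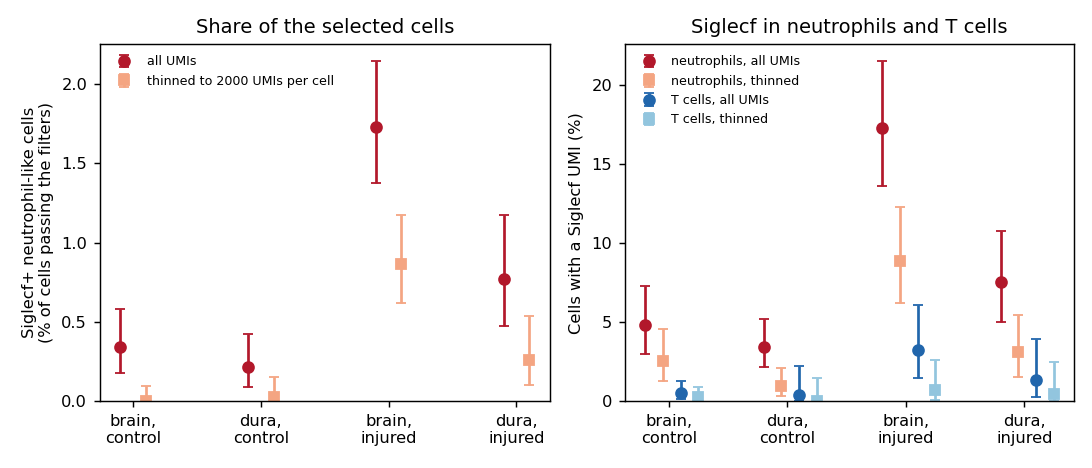
Left, Siglecf+ neutrophil-like cells as a percentage of passing cells in each library, counted on all UMIs (circles) and after thinning each cell to 2000 UMIs (squares). Right, percentage of gated neutrophils and of T cells with a Siglecf UMI, at the same depths. Bars are exact 95% intervals and each point is 1 library. The injured brain is highest in both panels, at 1.73% and 17.3% on all UMIs.

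*Igfbp6* was the further gene that set these cells apart most clearly once it was not asked for. Without the request for *Cxcl3*, *Igfbp6* or *Acod1*, 97 gated cells of the injured brain had *Siglecf* and *Csf3r*, and 66.0% of them (55.7 to 75.3) had an *Igfbp6* UMI, against 21.2% (16.8 to 26.2) of gated Siglecf-0 neutrophils. At 2000 UMIs the shares were 49.0% and 10.8%. The same direction was seen in the 31 such cells of INJ_dura (38.7% against 8.76%). In CT_brain an *Igfbp6* UMI was found in 3 of 22 such cells (13.6%, 2.91 to 34.9, against 2.18%). In CT_dura it was found in 1 of 27 (3.70%, 0.0937 to 18.97, against 1.47%). Both intervals overlapped those of the gated Siglecf-0 neutrophils, so no difference was detectable in the control libraries. In B cells of the injured brain *Igfbp6* was found in 1.25% and in T cells in 10.9%, so its share in gated Siglecf-0 neutrophils was also above both.

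*Cxcl3* showed the same direction in the injured brain at a lower share, and *Acod1* did not. A *Cxcl3* UMI was found in 34.0% of the 97 cells against 12.9% of gated Siglecf-0 neutrophils, and in 21.9% against 8.50% at 2000 UMIs. In INJ_dura the *Cxcl3* shares were 3.23% and 1.51%, and no *Siglecf* and *Csf3r* cell of the control libraries had one. These were 0 of 22 in CT_brain, an interval up to 15.4%, against 6.54% of gated Siglecf-0 neutrophils. In CT_dura they were 0 of 27, up to 12.8%, against 1.79%. Both intervals include the share of the neutrophils, and a difference was not tested there. *Acod1* was found in 62.9% of the 97 cells and in 67.5% of gated Siglecf-0 neutrophils, and in 45.8% and 42.5% at 2000 UMIs. For *Acod1* the difference between neutrophils with and without *Siglecf* was smaller than the counting intervals, which reach from 52.5% to 72.5% for the 97 cells.

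Most selected cells of the injured brain had more than 1 of the 3 genes, and most of those in the other libraries had 1. In the injured brain 22 of the 81 cells had all of *Cxcl3*, *Igfbp6* and *Acod1*, 33 had 2 of them and 26 had 1, of which 13 had *Igfbp6* only and 11 *Acod1* only. In CT_brain 12 of 13 cells had 1 of the 3, *Acod1* alone in 10, and in CT_dura all 8 had 1, *Acod1* alone in 7. In INJ_dura 14 of 21 had 1 and 7 had 2. The cells with all 3 genes were found in the injured brain library only. The control cells were thus for the most part neutrophils with *Siglecf* and *Acod1*, and *Acod1* is common among neutrophils in general.

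The selected cells of the injured brain fell into a shallow and a deep portion. Of the 81, 53 had 2000 to 6000 UMIs (2202 to 4705, median 3346), 27 had more (6017 to 55085, median 14928) and 1 had fewer. The 27 deep cells held 75% of the 710089 UMIs, so sums over all 81 cells mostly describe them. Among them, 13 had *Ngp*, *Camp*, *Ltf* and *Lcn2*, genes of the secondary granule made in immature neutrophils, at 5000 CPM or more together, and 4 had *H2-Aa*, an MHC class II chain, at 3 or more on the ln scale. None of the 53 shallow cells met either criterion. Below the *S100a8* and *S100a9* level asked of the comparison neutrophils were 9 of the 27 deep cells and 17 of the 53 shallow ones.

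A pair of comparisons is therefore given. The first sets all 81 cells against all 482 Siglecf-0 neutrophils, with UMIs summed over cells. The second, chosen after the depths were seen, keeps cells of 2000 to 6000 UMIs and applies the same gates to both sides, which leaves 53 cells against 122 Siglecf-0 neutrophils (2014 to 5986 UMIs, median 3690). It is called the depth-matched comparison below, and cells of both sides in it are called shallow. The match is by range only, since none of the 53 cells lies above 4705 UMIs and part of the neutrophils do. In this comparison *S100a8* and *S100a9* together took 2.79% of the UMIs of the selected cells and 18.4% of those of the neutrophils. A gene other than these then has more of the remaining UMIs, and the median log2 ratio over all genes was 0.47 in the depth-matched comparison and 0.13 in the first. The part of this shift in the result of any single gene was not tested.

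Over all depths, 9776 genes had at least 20 UMIs in both sets together. At least 4-fold higher in the 81 cells were 76 of them (0.777%) and at least 4-fold lower were 208 (2.13%), and 698 (7.14%) and 943 (9.65%) were past 2-fold. With depth matched, 3481 genes had enough UMIs, of which 245 (7.04%) were at least 4-fold higher and 133 (3.82%) lower, and 1043 (30%) and 366 (10.5%) were past 2-fold. These shares are the background for the counts of gene groups below.

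**Figure D2:**
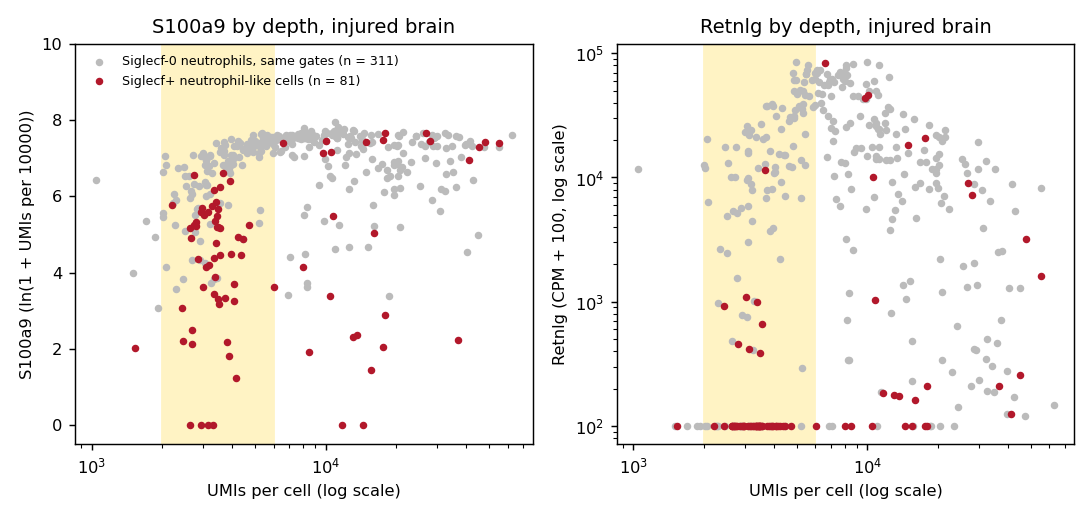
Each point is 1 cell of the injured brain, with its UMIs on a log axis. Left, S100a9 on the ln(1 + UMIs per 10000) scale. Right, Retnlg as CPM plus 100 on a log axis. Red points are the 81 Siglecf+ neutrophil-like cells, grey points the 311 gated Siglecf-0 neutrophils, and the shaded band marks 2000 to 6000 UMIs, which holds 53 red and 122 grey points. In the band 45 of 53 red points have no Retnlg UMI.

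Genes of the late neutrophil granules were much lower in the shallow selected cells. *Retnlg* (chr16:48872621-48874496, plus strand), a resistin-like secreted protein that marks mature blood neutrophils, was at 312 CPM in the 53 cells against 23965 CPM in the 122 neutrophils, a log2 ratio of -6.26 (-6.67 to -5.88). It had a UMI in 15.1% of the former and 82.0% of the latter, and 1 cell held 76.4% of the *Retnlg* UMIs of the 53. B cells of the injured brain, which should lack the gene, had a *Retnlg* UMI in 18.8% at a median of 3746 UMIs, so its share in the 53 cells was at the background. Over all depths the log2 ratio was -1.41, at 4129 against 10980 CPM. *Retnlg* was thus low in both comparisons, and the size of the difference depended on the deep cells. Many of the 122 neutrophils with high *Retnlg* lay above 4705 UMIs, a depth that none of the 53 cells reached.

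The other genes of the group pointed the same way, with the exception of *Ptafr* and *Mmp9*. Of 9 tertiary granule and late genes, 7 were at least 2-fold lower in the depth-matched comparison and 1 higher, with a median log2 ratio of -3.03. *Mmp8*, neutrophil collagenase, had a log2 ratio of -4.57, *Wfdc21* of -4.40, *Padi4*, the enzyme that citrullinates histones in extracellular traps, of -3.80 on 2 UMIs, *Slpi*, an inhibitor of leukocyte proteases, of -3.03, and *Anxa1*, annexin A1, of -2.94. *Ptafr*, the receptor for platelet-activating factor, was higher (1.20), and *Mmp9* was at 3201 against 2276 CPM (0.49), close to the median over all genes. Over all depths the same list had 1 gene higher, 2 lower and a median of -0.47.

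Secondary granule genes followed the depth of the cells. When depth-matched, 6 of 8 measured genes were at least 2-fold lower, with a median log2 ratio of -2.86. *Lcn2*, lipocalin 2, was at 369 against 4312 CPM (-3.55), and *Ngp* at 39.7 against 918 CPM (-4.53). *Cd177*, a surface protein of neutrophils, had 0 UMIs in the 53 cells and 86 in the 122, which with a floor of 3 counts for the 53 cells gives a log2 ratio of -3.43 or lower. High levels of these genes were carried by a portion of the neutrophils. At 5000 CPM or more of *Ngp*, *Camp*, *Ltf* and *Lcn2* together were 34 of the 122 and none of the 53. Most of these 34 lay above 4705 UMIs, where there was no selected cell of the comparison. The part of this remaining difference in depth was not tested. Over all depths 0 of 9 genes were past 2-fold and the median was 0.01, with *Lcn2* at 7361 against 7141 CPM.

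Calgranulins and stefins, small calcium-binding and protease-inhibiting proteins of the neutrophil cytosol, were lower as well. Of 9 measured when depth-matched, 8 were at least 2-fold lower and 1 was higher (median -2.65), against 5 of 10 lower over all depths (median -0.87). *S100a6* was at 641 against 6930 CPM (-3.43). *S100a8* (-2.59) and *S100a9* (-2.81) were part of the choice of the neutrophils and are given as a description of it. *Cstb*, cystatin B, was the higher gene (1.21). Stefin genes such as *Stfa2l1* share reads with near-identical copies, and their values are uncertain.

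When *S100a8* and *S100a9* at 3 or more were asked of the shallow selected cells too, 36 remained, and the direction of the granule genes was kept. *Retnlg* then had a log2 ratio of -5.79, *Mmp8* of -4.01, *Lcn2* of -2.99 and *Ngp* of -4.46. The low granule transcripts were therefore not limited to the 17 shallow cells below the *S100a8* and *S100a9* level.

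Among adhesion and trafficking genes, an integrin ligand and a chemokine-binding receptor were higher. *Icam1* (chr9:21015985-21028817, plus strand), the endothelial and leukocyte ligand of integrins, was at 1197 against 184 CPM in the depth-matched comparison (log2 ratio 2.70, 2.33 to 3.08), with a UMI in 73.6% against 18.9% of cells. An *Icam1* UMI was found in 16 of the 80 B cells, at a median of 3746 UMIs. *Ccrl2*, an atypical receptor that binds chemerin, was at 2758 against 674 CPM (2.03). *Icam1* and *Ccrl2* were the only 2 of 13 measured genes of this group at least 2-fold higher, 4 were lower, and the median was -0.38.

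The chemokine receptors *Cxcr2* and *Cxcr4* differed less than 2-fold. *Cxcr2* had a log2 ratio of -0.72, below the median of 0.47 over all genes. *Cxcr4*, the receptor that holds neutrophils in the bone marrow and is high on aged ones, had a ratio of 0.66, close to that median. *Cd44*, the hyaluronan receptor, had a ratio of -1.04. Over all depths *Icam1* was at 479 against 75.4 CPM (2.67) and *Ccrl2* at 1096 against 311 CPM (1.82), so both genes kept their direction.

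Tumour necrosis factor was at least 4-fold higher in both comparisons. *Tnf* (chr17:35199381-35202007, minus strand), a cytokine of activated myeloid cells, was at 1324 CPM (1240 to 1411) in the 81 cells and at 198 CPM in the 482 neutrophils, a log2 ratio of 2.74 (2.62 to 2.86). It had a UMI in 82.7% against 51.0% of cells. With depth matched it was at 3184 against 724 CPM, a log2 ratio of 2.14 (1.94 to 2.34), with a UMI in 79.2% against 39.3% of cells. In the 53 cells it ran per cell up to 14986 CPM with a median of 1846, and the top cell held 7.66% of its UMIs, so the level was spread over the cells. B cells of the same library had a *Tnf* UMI in 18.8%. In the depth-matched neutrophils *Tnf* was uneven. Most of its UMIs were in neutrophils without a *Retnlg* UMI, which held up to 48 per cell, although some held none. A neutrophil with *Retnlg* held 28. The 724 CPM is therefore a mean over unlike cells, and high *Tnf* without *Retnlg* was not limited to the selected cells. A difference in *Tnf* from the neutrophils without *Retnlg* alone was not tested.

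Of 7 measured cytokines and growth factors outside the interleukin 1 group, 6 were at least 2-fold higher in the depth-matched comparison and 1 lower (median 1.41). *Il23a*, a subunit of interleukin 23, was at 238 against 51.4 CPM (2.21) and *Csf1*, the growth factor of macrophages, at 562 against 199 CPM (1.497). *Osm*, oncostatin M, was the lower gene, at 79.5 against 338 CPM (-2.09). Over all depths the same list of 11 had 4 higher and 4 lower, with *Il23a* at 3.58, *Csf1* at 2.36 and *Osm* at -1.29. The median of the list differed in sign between the comparisons (-0.13 over all depths), and these 3 genes did not.

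Chemokines of the selected cells included attractants of neutrophils and of monocytes and T cells. Of 8 chemokines measured in the depth-matched comparison, 7 were at least 2-fold higher and 1 lower, with a median of 2.12, and over all depths 4 of 12 were higher and 2 lower (median 0.64). *Cxcl2*, an attractant of neutrophils, was at 22961 against 9157 CPM (1.33, 1.26 to 1.39) and ran per cell up to 58511 CPM with a median of 18530. *Ccl3* was at 1850 against 392 CPM (2.24) and *Ccl4* at 2077 against 394 CPM (2.40), both attractants of monocytes and T cells. *Cxcl2* was found in 98.1% of the 53 cells, and *Ccl4* in 50.9% of them against 42.6% of the neutrophils, so for *Ccl4* the level differed more than the share of cells.

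*Cxcl10*, an interferon-induced attractant of T cells, was at 653 against 34.3 CPM (4.25), and 22.6% of the 53 cells had a UMI, with 33.9% of the UMIs in 1 cell. *Cxcl1* was at 210 against 23.5 CPM (3.16) in 11.3% of the cells, with 45.9% of its UMIs in 1 cell. *Ccl6*, a chemokine made by resting myeloid cells, was the lower gene, at 102 against 1863 CPM (-4.19). *Cxcl10* and *Cxcl1* were thus carried by few cells, and *Cxcl2* by nearly all.

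Interleukin 1 genes were higher in both comparisons. *Il1b* was at 20765 against 10261 CPM in the depth-matched comparison (1.02, 0.95 to 1.08), and per cell it ran from 984 to 46367 CPM with a median of 20014. *Il1a* was at 516 against 96.3 CPM (2.42). *Il1rn*, the natural antagonist of the receptor, was at 619 against 235 CPM (1.39) and *Nlrp3*, an inflammasome sensor, at 976 against 432 CPM (1.17). The list had 5 of 8 genes higher and 1 lower in the depth-matched comparison (median 1.10), and 5 of 10 higher and 1 lower over all depths (median 0.64), where *Il1b* was at 8233 against 3000 CPM (1.46).

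Genes that are induced by NF-kB and feed back on it held no member at least 2-fold lower in either comparison. Of 16 genes, 8 were at least 2-fold higher in the depth-matched comparison (median 1.02), and 5 over all depths (median 0.75). *Nfkbia*, which encodes the inhibitor that holds NF-kB in the cytosol, was at 10578 against 4001 CPM (1.40), or at 4270 against 1509 CPM over all depths. *Tnfaip3*, the ubiquitin-editing enzyme A20, had log2 ratios of 1.47 and 1.56, *Traf1*, an adaptor of TNF receptors, of 2.16 and 1.55, and *Tnip1*, a partner of A20, of 2.02 and 1.30. *Nfkb1* differed between the comparisons, with 1.65 when depth-matched and 0.07 over all depths. Shares of genes past 2-fold stood at 30% for all genes in the depth-matched comparison and 7.14% over all depths.

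**Figure D3:**
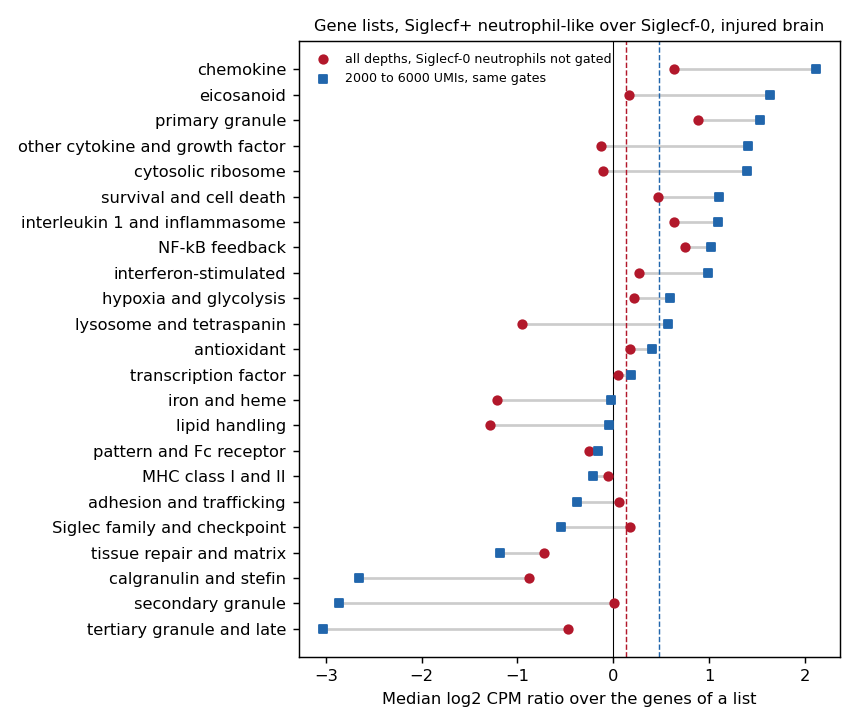
Median log2 CPM ratio of Siglecf+ neutrophil-like cells over Siglecf-0 neutrophils of the injured brain for each of 23 gene groups, for all cells (81 against 482) and for cells of 2000 to 6000 UMIs with the same gates (53 against 122). Dashed lines mark the medians over all genes, 0.13 and 0.47. The tertiary and secondary granule groups lie furthest to the left in the depth-matched comparison, with medians of -3.03 and -2.86. The chemokine group, which includes Cxcl3, a gene of the rule, lies furthest to the right at 2.12.

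Enzymes of eicosanoid synthesis, which make prostaglandins and leukotrienes, were higher in 3 of 5 measured genes in the depth-matched comparison, and none were lower (median 1.63). *Ptgs2*, the inducible cyclooxygenase, was at 1476 against 475 CPM (1.63) and *Ptgs1*, the constitutive one, at 414 against 38.5 CPM (3.43), and both were also higher over all depths (1.74 and 1.70). *Ltc4s*, leukotriene C4 synthase, was at 187 against 8.56 CPM (4.45), with 4 UMIs in the neutrophils, and at 0.19 over all depths. *Alox5ap*, which presents arachidonate to 5-lipoxygenase, was at 1078 against 2098 CPM (-0.96).

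Survival genes were higher in 7 of 13 and lower in none in the depth-matched comparison (median 1.10), and higher in 2 of 14 and lower in 1 over all depths (median 0.46). *Bcl2a1a* and *Bcl2a1b*, relatives of Bcl-2 that delay cell death, had ratios of 3.45 and 2.55, and *Gadd45b* of 1.43. The Bcl2a1 genes are near-identical copies whose reads can be split by the counting, so the single gene values are uncertain. *Mcl1*, which keeps neutrophils alive, was at 3167 against 2526 CPM (0.33) and had a UMI in 100% of the 53 cells.

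Lysosome, lipid and iron genes were lower over all depths and lay near or below the median of all genes when depth-matched. Over all depths 9 of 18 lysosome genes were at least 2-fold lower and none higher (median -0.95), with *Ctsd*, cathepsin D, at 777 against 3151 CPM. With depth matched, 5 of 16 were higher and none lower (median 0.57), beside 30% and a median of 0.47 over all genes, with *Cd63*, a tetraspanin of granules and lysosomes, at 743 against 257 CPM (1.53) and *Ctsd* at -0.13. For lipid handling, 7 of 14 genes were lower over all depths (median -1.29) and 1 of 8 in the depth-matched comparison (median -0.05), where *Plin2*, which coats lipid droplets, was at 1016 against 325 CPM (1.64). Iron and heme genes were lower in 5 of 9 over all depths (median -1.21) and in 1 of 5 when depth-matched (median -0.03).

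The macrophage markers moved with these lists. Summed over 13 macrophage markers, the level was 2319 CPM in the 81 cells, 1674 CPM in the 53 shallow cells, 19327 CPM in the 482 Siglecf-0 neutrophils and 5061 CPM in the 311 gated ones, beside 55702 CPM in macrophages of the library. The T cells, at 31125 CPM, also held these transcripts. *C1qa* was part of the gate on the selected cells and not on the 482 neutrophils, and the part of macrophage transcripts in the lower genes was not tested. The depth-matched comparison applies the gate to both sides.

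The genes furthest below the neutrophils over all depths included many macrophage genes. Of the 51 genes that met the rule for naming, the 15 with the largest ratio were named, and the first were *C1qb* (-4.14), *C1qc* (-3.92) and *Mertk* (-3.86), which encode complement subunits and a receptor for dying cells. Next came *Rab3il1* (-3.84), *Arg1*, arginase 1 (-3.73), *Olfml3* (-3.68) and *Frmd4b* (-3.40), and then *Trem2* (-3.28), *Maf* (-3.28), *Ang* (0 UMIs in the selected cells), *Rnase4* (-3.22), *Tmem37* (-3.21), *Gpnmb* (-3.095), *Apoe* and *Syngr1* (-3.05). *Apoe*, apolipoprotein E, was at 1542 against 13073 CPM (-3.08). With gated neutrophils, 12 of the 13 that could still be measured kept their direction and 1 of 13 was still at least 4-fold lower. In the depth-matched comparison 4 of the 15 had enough UMIs to be measured, and none of these was past 4-fold. *Apoe* was there at 908 against 1081 CPM (-0.25), *C1qb* had a ratio of 0.29 and *Trem2* of 0.085. The low macrophage genes were thus seen in the comparison with ungated neutrophils. They were not seen in the depth-matched one for the 4 that could be measured.

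The genes furthest above the neutrophils were named from the comparison over all depths. Of 16 genes that met the rule, the 15 with the largest ratio were named. All 15 were higher in the depth-matched comparison as well, 11 of them at least 4-fold. The 53 and 122 cells of that comparison are part of the 81 and 482 on which the genes were chosen. The kept direction is therefore not independent support. *Gpc3* (chrX:52272426-52613950, minus strand), a cell-surface proteoglycan of the glypican family, was first, at 77.5 against 2.74 CPM over all depths (4.82, 4.06 to 5.64) and at 267 against 10.7 CPM when depth-matched (4.64, 3.32 to 6.33). It had a UMI in 35.8% of the 53 cells against 3.28% of the 122 neutrophils, and no UMI in any T or B cell of the injured brain. Among the named genes, *Gpc3* had both the largest ratio over all depths and no background UMI in the lymphocytes.

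*Hic1*, a transcriptional repressor, had ratios of 3.04 over all depths and 4.93 when depth-matched, on 2 UMIs in the neutrophils. *Gpr84*, a receptor for medium-chain fatty acids, was at 253 against 38.9 CPM (2.71) and at 777 against 89.9 CPM (3.11). *Prnp*, the prion protein, had ratios of 2.63 and 2.09, and *Entpd3*, an enzyme that degrades extracellular nucleotides, of 2.53 and 1.63. These genes are of unlike function, and each was found in a minority of the shallow cells, *Gpr84* in 41.5%, *Prnp* in 30.2%, *Hic1* in 28.3% and *Entpd3* in 24.5%. The remaining named genes were *Scimp*, an adaptor of immune receptors (2.32 and 3.17), *Arf2*, a small GTPase of vesicle traffic (2.20 and 2.11), *Acot1*, an acyl-CoA thioesterase (2.16 and 1.97), and the predicted genes *Gm20186* (2.47 and 1.99) and *Gm31718* (2.44 and 2.48).

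**Figure D4:**
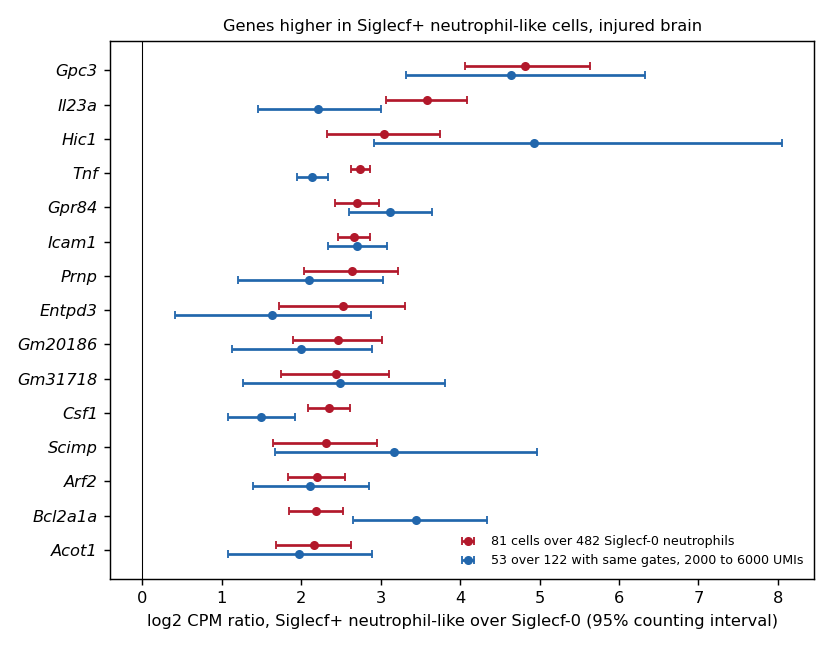
Log2 CPM ratio of Siglecf+ neutrophil-like cells over Siglecf-0 neutrophils of the injured brain for the 15 named higher genes, for all cells (red) and for cells of 2000 to 6000 UMIs with the same gates (blue). Bars are exact 95% counting intervals, which do not cover the variation from cell to cell. All 15 genes lie above 0 in both comparisons, which share cells, from Gpc3 at 4.82 to Acot1 at 2.16 over all depths.

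Genes of the response to low oxygen and oxidants differed less. Of 20 hypoxia and glycolysis genes, 5 were higher and 1 lower in the depth-matched comparison (median 0.59), and 2 of 21 higher over all depths (median 0.22). *Hilpda*, a hypoxia-induced regulator of lipid droplets, was at 1078 against 295 CPM (1.87), and *Slc16a3*, the lactate exporter, at 414 against 1115 CPM (-1.43). *Gapdh*, a glycolytic enzyme, was at 2508 against 2100 CPM (0.26). Of the antioxidant genes, 2 of 11 were higher and 2 lower (median 0.41), with *Sod2*, the mitochondrial superoxide dismutase, at 2.04, *Prdx1* at 2.24 and *Txn1*, thioredoxin, at -1.27. These medians lie near that of all genes.

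Interferon-stimulated genes were uneven among the selected cells. In the depth-matched comparison 7 of 15 were at least 2-fold higher and 2 lower (median 0.99), against 2 higher and 2 lower of 16 over all depths (median 0.27). *Isg15* was at 1214 against 441 CPM (1.46) while its share of cells was 41.5% against 48.4%, and *Ifit1* was at 250 against 59.9 CPM (2.06), with 40.9% of its UMIs in 1 cell. Of 7 such genes, 28 of the 53 cells had none, and 7 cells had at least 4. The interferon signal was therefore that of a few cells, and when *S100a8* and *S100a9* were asked of the selected cells the ratio of *Isg15* was 0.62.

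Ribosomal protein genes were higher in 10 of 12 and lower in none in the depth-matched comparison (median 1.39), and past 2-fold in none over all depths (median -0.10). *Rps18* was at 732 against 158 CPM (2.21) and *Rpl32* at 1146 against 298 CPM (1.95). Genes that respond to tissue dissociation had 3 of 11 higher and none lower, with a median of 0.51, near the 30% and 0.47 of all genes. The higher genes were *Jun* at 1.67, *Egr1* at 1.77 and *Zfp36* at 1.22, and over all depths none was higher and 2 were lower (median -0.41). Transcription factors had 6 of 22 higher and none lower (median 0.19), with *Maff*, a small Maf protein, at 1.89, *Junb* at 0.50 and *Klf2* at 0.17. The part of dissociation in the cytokine and NF-kB values above was not tested.

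Matrix and repair genes had a median below that of all genes in both comparisons. In the depth-matched comparison 5 of 9 were at least 2-fold lower and 1 higher (median -1.18), and over all depths 8 of 18 lower and 2 higher (median -0.72), or a median of -0.41 against gated neutrophils of all depths. *Timp2*, an inhibitor of matrix metalloproteinases, had a ratio of -3.32, *Adam8*, a membrane protease, of -3.12, *Lgals3*, galectin 3, of -1.62, *Vim*, vimentin, of -1.34 and *Plaur*, the urokinase receptor, of -1.18. The higher gene was *Igfbp6*, which the rule asked for as 1 of 3. *Adam8* and *Timp2* had log2 ratios of -1.12 and -2.33 over all depths, the same direction.

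Receptors showed no common direction. Pattern and Fc receptors had 2 of 13 higher and 2 lower (median -0.16), with *Clec4n*, dectin 2, at 2.10, *Tlr2* at -1.43 and *Fpr1*, a receptor for bacterial peptides, at -1.71. Siglec family and checkpoint genes had 1 of 10 higher, which was *Siglecf* itself, and 2 lower (median -0.54). *Siglece*, the usual Siglec of mouse neutrophils, was at 227 against 197 CPM (0.20), and *Cd274*, which encodes PD-L1, at 79.5 against 49.2 CPM (0.69, -0.38 to 1.71). MHC genes had 1 of 10 higher and 2 lower (median -0.21). Over all depths the medians of these 3 lists were -0.26, 0.18 and -0.06.

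Primary granule genes, which are made in precursors, were higher in 3 of 8 over all depths (median 0.88) and in 2 of 3 when depth-matched (median 1.53). *Mpo*, myeloperoxidase, was at 131 against 45.2 CPM over all depths (1.54), with 96.8% of its UMIs in 1 cell, and *Prtn3*, proteinase 3, had 68.5% of its UMIs in 1 cell. The progenitor and cell cycle list summed to 2293 CPM in the 81 cells, 3013 CPM in the deep cells and 136 CPM in the 53 shallow cells, against 1101 CPM in the 482 neutrophils. The values of this list over all depths therefore come from few deep cells.

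The injured dura held 21 selected cells with a median of 6229 UMIs, against 15095 UMIs in its 515 Siglecf-0 neutrophils. The median log2 ratio over all genes was 0.34. Genes without a UMI in the 21 cells were set to 3 counts there, which can give a ratio above 0. This median is therefore not free of the floor. *Igfbp6* was at 317 against 14.97 CPM (4.40, a gene of the rule). *Cxcl2* was at 3846 against 678 CPM (2.50), *Il1b* at 7181 against 1480 CPM (2.28) and *Ptgs2* at 707 against 102 CPM (2.79). These 3 inflammatory genes were higher in the selected cells, as in the brain. *Tnf* was at 174 against 67.1 CPM (1.38), with 60.6% of the UMIs in 1 cell, *Icam1* at 121 against 40.9 CPM (1.57) and *Nfkbia* at 1382 against 643 CPM (1.10).

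At matched depth, 9 selected cells of the dura were set against 43 gated neutrophils of 2000 to 6000 UMIs (medians 4581 and 4579). Part of the inflammatory genes, such as *Cxcl2*, *Ptgs2* and *Nfkbia*, stayed at least 2-fold higher, and the median over all genes was 0.02. *Cxcl2* was at 7390 against 1880 CPM (1.97), *Ptgs2* at 2295 against 699 CPM (1.71) and *Nfkbia* at 4061 against 1776 CPM (1.19). *Il1b* was at 15057 against 8473 CPM (0.83). Of the 5 measured genes of the interleukin 1 list, 0 were at least 2-fold higher (median 0.22). *Tnf* had 22 UMIs in the 9 cells (2.84), in 22.2% of them against 23.3% of the neutrophils, and *Icam1* had 19 UMIs (1.95). The median of the NF-kB list was 0.87.

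*Retnlg* and the granule genes depended on depth in the dura. Over all depths *Retnlg* was at 14398 against 13266 CPM (0.12), and 81.0% of the 21 cells had a UMI of it. With depth matched it was lower, at 5750 against 17013 CPM (-1.56, -1.76 to -1.37), with a UMI in 66.7% against 97.7% of cells. *Lcn2* then had a ratio of -2.50, *Mmp8* of -1.27 and *Ngp* of -5.07 on 4 UMIs, and the median was -3.35 for the secondary granule list and -0.78 for the tertiary granule and late list. These values rest on 9 cells. *Gpr84* was at 26.4 against 36.1 CPM over all depths (-0.45, -2.09 to 0.78), and *Gpc3* had no UMI in the dura cells.

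Side by side, the selected cells of the injured brain stood apart from those of the other libraries in both directions. *Tnf* was at 1324 CPM in INJ_brain, 174 CPM (120 to 245) in INJ_dura, 40.0 CPM (16.1 to 82.5) in CT_brain and 0 UMIs in CT_dura. *Icam1* was at 479, 121, 40.0 and 0 CPM in the same order, and *Cxcl2* at 9083, 3846, 1201 and 2370 CPM. The intervals of the injured brain were above all others for these genes. *Retnlg* was at 4129 CPM in INJ_brain, 14398 in INJ_dura, 13449 in CT_brain and 29274 in CT_dura, with the injured brain lowest. *Mmp9* was at 1620, 1715, 1447 and 3112 CPM, where the intervals of the injured brain, the injured dura and the control brain overlapped.

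Gated Siglecf-0 neutrophils of the libraries did not show all of these differences. Their *Retnlg* level was 14828 CPM in INJ_brain, 15732 in INJ_dura, 17751 in CT_brain and 14786 in CT_dura, a narrow range beside that of the selected cells. Their *Tnf* level was 187, 34.5, 74.2 and 46.2 CPM in the same order, again highest in the injured brain but below its selected cells. *Igfbp6* was at 47.7, 10.8, 4.16 and 1.55 CPM in them. With 13 and 8 selected cells in the control libraries, a single cell could hold much of a gene's UMIs: 71.4% of *Igfbp6* in CT_brain and 100% in CT_dura.

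**Figure D5:**
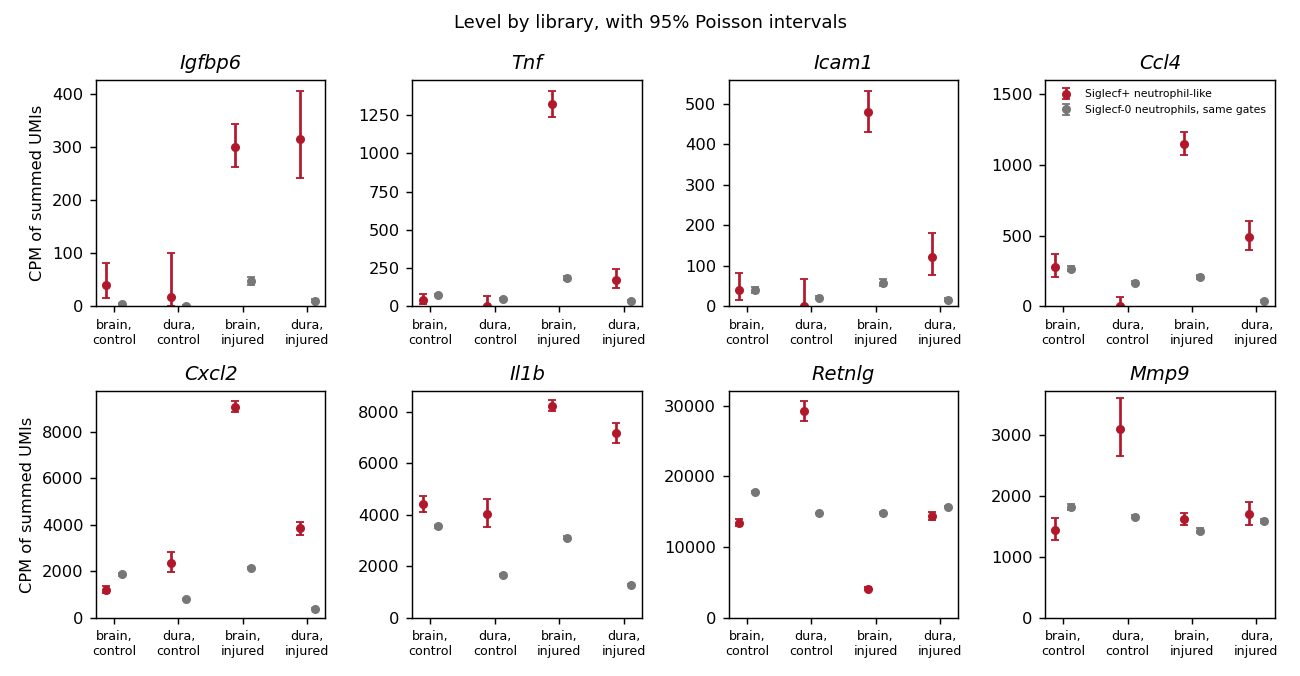
CPM of summed UMIs for 8 genes in each of the 4 libraries, for Siglecf+ neutrophil-like cells (red, 13, 8, 81 and 21 cells from left to right) and gated Siglecf-0 neutrophils (grey, 413, 613, 311 and 331 cells), with 95% Poisson intervals. In the injured brain the red points are above all grey points for Igfbp6, Tnf, Icam1, Ccl4, Cxcl2 and Il1b, and below them for Retnlg.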

How the data were processed

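Single cells were profiled in 4 libraries, 1 per group, with the Chromium Single Cell 3' v3 kit, which counts UMIs at transcript ends. Per the labels the authors used Cell Ranger 3.1.0, Seurat 3.1.0 and the mm10 build, and the day of sampling comes from the paper's methods. Per the authors' deposited files, the values are natural log (ln) values, ln(1 + UMIs of a gene / UMIs of its cell x 10000), for genes found in at least 3 cells. Since every nonzero value came out as a whole multiple of 1 UMI within a relative tolerance of 1e-06, the UMIs were recovered from them, between 49003977 and 115154317 per library.

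The filters asked for 501 to 5999 genes with a UMI and for mitochondrial transcripts of no more than 7%. Levels are CPM of the UMIs that all cells of one kind hold together, with exact Poisson intervals. Shares have exact Clopper-Pearson intervals, and ratios of CPM have exact conditional intervals. All intervals are at 95% and cover counting error only, and a 0 was set against a floor of 3 counts. No test was possible with 1 library per group, since cells are not replicates. Genes with at least 20 UMIs in both classes together entered a comparison. The selected cells and the gene lists were chosen with earlier results of these data known.

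Named beyond the lists were up to 15 genes in each direction with the largest CPM ratio of at least 4 over all depths, at least 50 UMIs and a UMI in at least 20% of the cells of the higher class. T cells were cells with *Cd3e* and *Trbc2* and without *Cd79a*, B cells had *Cd79a* and *Ms4a1* and no *Cd3e*, and macrophages had *C1qa* at 1.5 or more, *Csf1r* and no *Csf3r*. The automatic threshold of Scrublet marked between 0 and 3 barcodes per library, which was taken as a failure, and the highest scores were removed instead as an alternative (0.8% per 1000 barcodes). At that setting 1 of the 123 selected cells was marked. Alternatives were other gates, depths, count minimums and weights of cells, and the restriction to 2000 to 6000 UMIs was added after the data were seen. Gene positions are from the GENCODE annotation of GRCm38. The code was tested on simulated data with known ratios. Python 3.11.15, numpy 2.4.6, scipy 1.17.1, pandas 2.3.3, scanpy 1.11.5 and matplotlib 3.10.9 were used.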

Additional observations from a re-analysis of the deposited data

Results flagged for a closer look

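For 6 genes of the lists, the ratio of Siglecf+ neutrophil-like cells over Siglecf-0 neutrophils pointed one way in the injured brain and the other way in the injured dura, at least 2-fold in each. These differences between brain and dura were not tested, since each is 1 library. *Cxcl10* had a log2 ratio of 1.42 in the brain and no UMI in the 21 selected cells of the dura, which with a floor of 3 counts gives a ratio of -1.38 or lower there. *Fcnb*, ficolin B of immature neutrophils, had ratios of 1.93 in the brain and -1.48 in the dura, with 38.1% and 93.3% of its UMIs in 1 cell. *Fn1*, fibronectin, had ratios of -1.87 and 1.57, with 76.6% and 97.4% of its UMIs in 1 cell. *Mki67*, a marker of cycling cells, had ratios of 1.02 and -2.59, on 128 UMIs in the brain and 3 in the dura. *Mpo* had ratios of 1.54 and -4.30, with 96.8% of the UMIs of the brain in 1 cell and 1 UMI in the dura. *Prtn3* had ratios of 1.08 and -2.45, with 68.5% of its UMIs in 1 cell of the brain and 100% in 1 cell of the dura. In each of these cases the value of at least 1 library rested on 1 cell or on at most 15 UMIs.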

How the results depend on the processing

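The share of Siglecf+ neutrophil-like cells was highest in the injured brain under all alternatives. With at least 2 *Siglecf* UMIs the shares were 0.105% in CT_brain, 0.0268% in CT_dura, 0.833% in INJ_brain and 0.331% in INJ_dura. After thinning to 2000 UMIs they were 0, 0.0279%, 0.865% and 0.262% in the same order. With 5 further macrophage genes at 0 they were 0.157% in CT_brain, 0.640% in INJ_brain and 0.257% in INJ_dura. Without the request for *Cxcl3*, *Igfbp6* or *Acod1* the share in CT_dura was 0.725%.

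Counts of genes depended on the settings more than directions did. The count of genes at least 4-fold higher (76 over all depths) was 132 with at least 2 *Siglecf* UMIs, 389 with the further macrophage genes at 0, 230 as a mean over cells, 15 among genes with at least 100 UMIs, 245 with depth matched and 156 when *S100a8* and *S100a9* were also asked of the selected cells. Genes without a UMI in the selected cells were set to the floor count, which can give a high ratio where few cells are left. The 389 can therefore include genes absent from the selected cells, and how many was not counted. The count of genes lower (208) was 116 after thinning, 60 with gated neutrophils, 428 as a mean over cells, 114 with at least 100 UMIs, 133 with depth matched, 132 with *S100a8* and *S100a9* asked for too, and 90 without cells rich in secondary granule transcripts. The settings with depth matched, with *S100a8* and *S100a9* asked for and without granule-rich cells were chosen after seeing the data.

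The value for *Ang* after thinning, 0.22, is set by the floor of 3 counts against 0 UMIs and is an upper bound. The log2 ratio turned positive for *C1qc* with gated neutrophils (0.27), for *C1qb* (0.29), *C1qc* (0.78) and *Trem2* (0.085) with depth matched, and for *C1qb* (0.29) and *C1qc* (0.58) when *S100a8* and *S100a9* were asked for too, as did the median of the iron and heme list with *S100a8* and *S100a9* asked for (0.058). With depth matched the medians of further lists changed sign, among them from below to above 0 the lysosome (-0.95 to 0.57), other cytokine (-0.13 to 1.41), ribosome (-0.10 to 1.39) and dissociation (-0.41 to 0.51) lists, and from above to below 0 the secondary granule (0.01 to -2.86), adhesion (0.06 to -0.38) and Siglec (0.18 to -0.54) lists. The cause was not tested for any of these changes. The 15 named higher genes kept their direction under all alternatives in which they could be measured. These alternatives reuse cells on which the genes were chosen, so the kept direction is not independent support. No paired analysis was possible because each group is 1 library. The number of selected cells, 13 and 8, limits the values of the control libraries.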
